A study of Homo sapiens with 12 samples.

Results

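Cells of the line MKN1 treated with cantharidin sodium were set against cells of the line AGS given the same agent. These are 6 of the 12 libraries of the series, chosen by their labels alone: 3 of treated MKN1 and 3 of treated AGS. AGS is labelled as an epithelial line from a gastric adenocarcinoma, and MKN1 as a line from an adenosquamous carcinoma of the stomach. Both lines carry the genotype label WT, grew in RPMI-1640 with fetal bovine serum and antibiotics, and were described as 3 biological replicates per group. The other 6 libraries, 3 of untreated AGS and 3 of untreated MKN1, served here to measure the same difference between the lines without the agent. No dose or duration of treatment and no vehicle is named in the sources used here. Each line stands for 1 tumour, so a difference between them cannot be assigned to tumour type, genotype or any other property that separates them.

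Cantharidin is a terpenoid toxin of blister beetles that inhibits the serine/threonine phosphatases PP2A and PP1. These enzymes remove phosphate groups from many kinases, transcription factors and junction proteins, and PP2A works as a catalytic subunit bound to a scaffold and to 1 of many regulatory subunits. Stomach epithelium is a simple, mucin-secreting layer, whereas an adenosquamous carcinoma holds both gland-forming and squamous cells, the latter marked by basal keratins. The comparison asks how the lines differ while the agent is present, and whether they stand farther apart or closer together than without it.

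For each gene the treated gap is the log2 fold change of treated MKN1 over treated AGS, so a positive value is higher in MKN1. The untreated gap is the same quantity in untreated cells, and the difference of the gaps is the treated minus the untreated gap. A gene whose treated gap is larger in size than its untreated gap is called wider, and the opposite narrower. Levels are in CPM, the counts of a gene per scaled library total, given in the order of libraries 1, 2 and 3. Calls are adjusted p under 0.05 in edgeR's quasi-likelihood test over all 20280 genes tested. SE, also the value after ±, is the absolute log2 fold change divided by the square root of that test's F statistic.

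The 12 libraries held between 28604966 and 51604215 counts, and the 6 treated ones between 28604966 and 39744350. Counts of 0 in a treated library allow a level of up to 0.0772 to 0.0985 CPM, and this limit covers counting error only. MKN1 libraries varied more among themselves than AGS libraries. The median SD of log2 CPM over genes was 0.265 in treated MKN1 and 0.135 in treated AGS, and 0.266 and 0.142 in the untreated groups. The third untreated MKN1 library stood apart from the other two of its group. Mitochondrially encoded genes took 8.37 to 9.65% of counts in treated AGS and 4.42 to 5.44% in treated MKN1. For some results a library whose removal ended a call is named. An adjusted p given with that library is the highest of the 12 fits that leave out 1 library. Other fits may lose the call too.

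The lines differed at most genes under treatment, and only slightly more than without it. Of 20280 genes, 13818 (68.1%) passed the test in the treated gap, 7456 (36.8%) higher in MKN1 and 6362 (31.4%) higher in AGS. At a change of at least 2-fold the count was 9233 (45.5%), with 5389 (26.6%) higher in MKN1 and 3844 (19.0%) higher in AGS. Differences past 10-fold were more frequent in the direction of MKN1, with 2538 genes against 613. The untreated gap passed at 13452 genes (66.3%), and at 8797 (43.4%) with at least 2-fold change. Of the untreated calls, 10604 also passed in the treated gap in the same direction. These shared genes were 76.7% of the treated and 78.8% of the untreated calls, and 320 genes passed in both with opposite signs. In these bulk libraries, fewer cells of a type and less RNA per cell cannot be told apart.

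The size of the gap hardly moved over all genes. The median absolute treated gap was 0.94 on the log2 scale and the median absolute untreated gap 0.89, and 53.4% of genes had the wider estimate under treatment. Among the 13032 genes with at least 5 CPM in 1 group the medians were 0.79 and 0.74. The treated and untreated gaps were close across genes, with Pearson's r = 0.895 and a Spearman rank correlation of 0.836 over all genes tested, which share libraries of the same lines and are not independent replicates. The root mean square log2 distance between a treated AGS and a treated MKN1 library was 2.43 to 2.48, against 2.39 to 2.43 between untreated libraries. Within treated AGS the distance was 0.543 to 0.580 and within treated MKN1 0.609 to 0.680. Treated AGS lay 0.776 to 0.842 from untreated AGS, and treated MKN1 0.697 to 0.831 from untreated MKN1. The lines thus stood about as far apart with the agent as without it, and each line stood much closer to its own untreated state than to the other line.

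**Figure D1:**
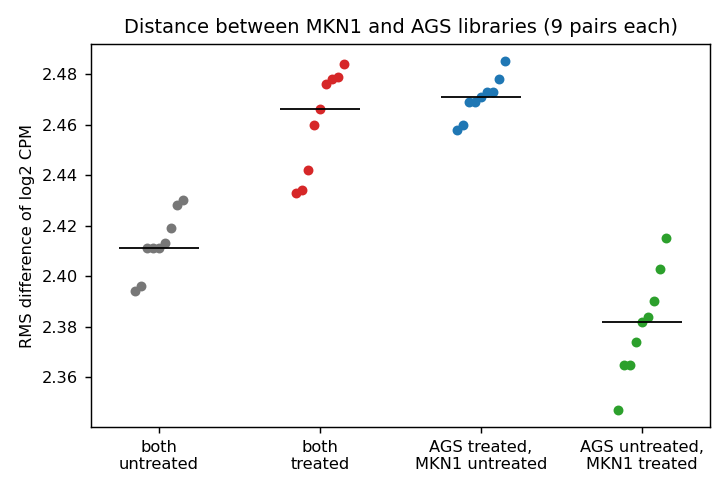
Root mean square difference of log2 CPM between an AGS and an MKN1 library, 1 point per pair of libraries and a bar at the median, for 4 combinations of treated and untreated groups. Treated pairs lie at 2.43 to 2.48 and untreated pairs at 2.39 to 2.43, and pairs of untreated AGS with treated MKN1 lie lowest, at 2.35 to 2.42.

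The treated gap differed from the untreated gap at 3180 genes (15.7%), and at 6312 by unadjusted p under 0.05. The gap was wider at 1790 (8.83%) and narrower at 1390 (6.85%). The difference pointed towards MKN1 at 1700 (8.38%) and towards AGS at 1480 (7.30%). Sorted by their pattern, 1201 genes differed more under treatment, with a median absolute gap of 1.91 against 0.78. Another 422 opened, from an untreated gap under 0.5 to a called treated gap of at least 1 (medians 0.25 and 1.47). In the opposite sense 862 narrowed, with a median absolute gap of 0.71 under treatment against 1.75 without it. Another 375 closed to a treated gap under 0.5, and 320 reversed, meaning that each line was the higher one in 1 of the states. Leaving out the third untreated MKN1 library raised the count of differences to 4643, and leaving out the first untreated AGS library lowered it to 2098. Of the 190 named genes and list members called in this contrast, 125 stayed called in all 12 fits that leave out a library, and 65 lost the call in at least 1 of them.

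**Figure D2:**
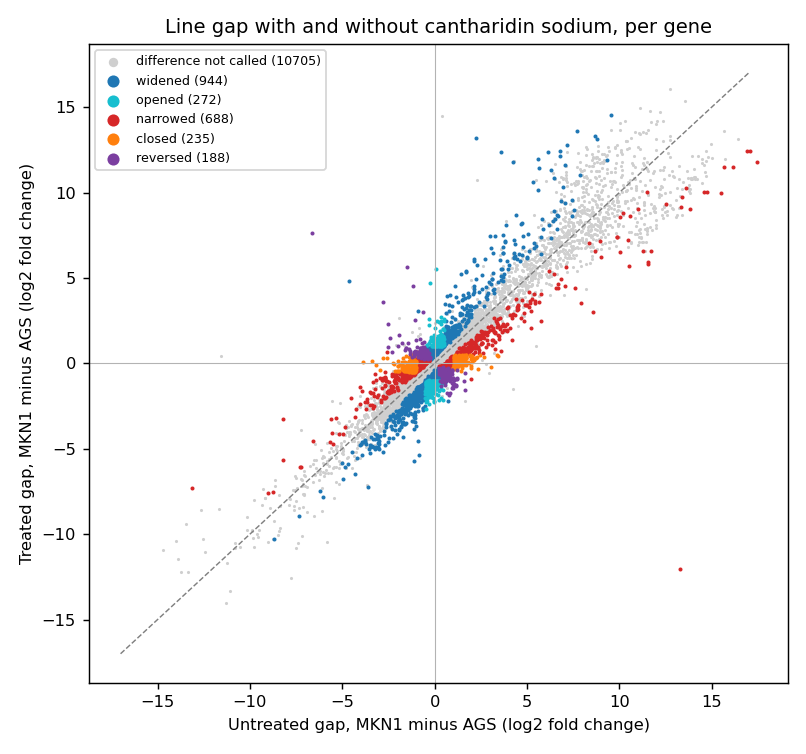
Untreated gap on the horizontal axis against treated gap on the vertical axis, both log2 of MKN1 over AGS, 1 point per gene for the 13032 genes with at least 5 CPM in 1 group. Most genes lie on the diagonal, and the coloured genes, whose gaps differ, lie on both sides of it.

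Epithelial junction genes were higher in treated AGS. Of 26 genes tested 24 passed in that direction and 1 in the other, with a median treated gap of -2.05 where all genes had a median of 0.08. EPCAM, an epithelial adhesion molecule, was at 425, 467 and 425 CPM in treated AGS and at 21.1, 22.3 and 19.5 in treated MKN1. ESRP1, a splicing regulator of epithelial cells, was at 379, 426 and 366 CPM against 1.46, 1.54 and 0.823, a treated gap of -8.27 (SE 0.28, adjusted p = 5.48e-11). CLDN7, a tight-junction claudin, was at 293, 273 and 255 CPM in AGS and 4.28, 5.74 and 4.04 in MKN1. The AGS libraries were the high ones at all of these genes and no library of one line overlapped the other, as for 74.0% of all genes. CLDN7 stood at -4.70 ± 0.15 (SE) without the agent and -5.87 ± 0.16 with it, a difference of -1.18 (SE 0.19, adjusted p = 0.00198), so its gap was wider. The junction scaffold CGN was wider as well, with a difference of -0.85 (SE 0.21, adjusted p = 0.0173). These are 2 of 4 genes of the list with a called difference (15.4%, against 15.7% of all genes), all 4 towards AGS. The other two are CLDN1 and CLDN3, and the count was 2 without untreated AGS library 3 or treated AGS library 2 and 8 without the third untreated MKN1 library.

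Transcription factors of stomach and intestine showed the same direction. Among 20 tested, 17 were higher in treated AGS and 2 in treated MKN1, with a median treated gap of -2.38 against -3.03 without the agent. HNF4A, a regulator of digestive epithelium, was at 65.7, 61.97 and 59.8 CPM in treated AGS and at 0.668, 0.689 and 0.360 in treated MKN1. FOXA3, a forkhead factor of endoderm, was at 40.4, 37.8 and 40.6 CPM against 0.273, 0.427 and 0.489. Both lay far above the MKN1 libraries in every AGS library, and their gaps of -6.79 and -6.62 differed little from the untreated -7.22 and -7.56. The gap differed between the states at 4 of the 20 genes, a share little above the 15.7% of all genes. Among these 4 was GATA4, a zinc-finger factor of stomach epithelium. It was at 69.04, 66.6 and 70.3 CPM in treated AGS, 10.7, 13.1 and 15.4 in treated MKN1, 132, 134 and 141 in untreated AGS and 6.22, 7.55 and 10.7 in untreated MKN1. Its gap narrowed from -4.05 ± 0.19 to -2.39 ± 0.18, with a difference of 1.66 (SE 0.24, adjusted p = 0.00115). EHF, an epithelial ETS factor, moved the other way, with a treated gap of -4.61, an untreated gap of -2.54 and a difference of -2.07 (SE 0.44, adjusted p = 0.00828). ONECUT2 was among the 2 genes higher in MKN1, at 2.82 with treatment and 1.72 without.

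Surface and secreted products of gastric and intestinal cells were higher in treated AGS at 15 of 19 genes and in treated MKN1 at 1, with a median gap of -3.83 against -3.09 in untreated cells. The intestinal cadherin CDH17 was at 227, 205 and 223 CPM in treated AGS and 0.182, 0.0985 and 0.154 in treated MKN1, where its level was near the counting limit. MUC1, a membrane mucin, changed its side. It was at 208, 207 and 168 CPM in treated AGS and 124, 85.7 and 109.6 in treated MKN1, whereas untreated AGS held 113, 114 and 145 and untreated MKN1 221, 256 and 273. The treated libraries did not overlap and neither did the untreated ones, and the difference was -1.88 (SE 0.22, adjusted p = 3.19e-04). CEACAM5, a carcinoembryonic adhesion molecule, was wider under treatment, from -1.14 ± 0.31 to -3.83 ± 0.33. The difference was called at 4 genes of the list (21.1%, against 15.7% of all genes), all towards AGS. That count was 2 without untreated MKN1 library 1 or 2 or treated MKN1 library 1.

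Squamous and basal epithelial genes formed the opposite block. Of 24 tested, 21 were higher in treated MKN1, and the median treated gap was 6.46. KRT5, the keratin of basal cells, was at 473, 509 and 650.5 CPM in treated MKN1 and at 0.122, 0.0516 and 0.112 in treated AGS. KRT16, a keratin of stratified epithelium, was at 386, 409.6 and 326 CPM against 0.547, 1.16 and 0.364. TRIM29, expressed in basal layers, was at 637, 530.0 and 727 CPM against 3.35, 5.03 and 3.41. The MKN1 libraries were high and the AGS libraries low at each gene, without overlap. The summed level of the squamous markers was 2240 to 3130 CPM in treated MKN1 and 90.3 to 107 CPM in treated AGS. Nearly all of the AGS sum was SFN, at 89.6, 106 and 95.4 CPM, against 210, 225 and 248 in treated MKN1. The gap in KRT5 was called narrower, -4.43 (SE 1.05, adjusted p = 0.0171), but rests on 0 counts in all untreated AGS libraries against 4, 2 and 4 counts in the treated ones. Among simple epithelial keratins 4 of 5 were higher in treated MKN1. The summed level of the epithelial markers EPCAM, CDH1, KRT8, KRT18 and KRT19, mostly the keratins, was also higher there. It was 4890 to 6620 CPM in treated MKN1 and 3910 to 4460 CPM in treated AGS. KRT19, a keratin of glandular epithelium, was at 1178, 908 and 1187 CPM in treated MKN1 and 399, 499 and 446 in treated AGS. Its gap opened from 0.18 (SE 0.14, adjusted p = 0.289) to 1.28 (SE 0.14, adjusted p = 3.94e-06), with a difference of 1.11 (SE 0.20, adjusted p = 0.00372).

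Mesenchymal genes were mostly higher in treated MKN1, at 15 of 20 genes, against 3 higher in AGS, and the median gap was 5.64. COL5A1, a fibrillar collagen chain, was at 1292, 1332 and 1614 CPM in treated MKN1 and 0.456, 0.284 and 0.587 in treated AGS. FN1, fibronectin, was at 1310.3, 1507 and 651 CPM against 3.10, 1.70 and 2.60, a treated gap of 8.88 (SE 0.45, adjusted p = 2.00e-09). Neither overlapped between the lines, although the third MKN1 library held less FN1 than the others. ZEB1, a repressor of epithelial genes, had a gap of 3.87 ± 0.22 with treatment and 2.77 ± 0.20 without. That difference was called (1.09, adjusted p = 0.0196) but reached 0.0597 without the first untreated AGS library. Markers of cells that such cultures should lack were also summed. Fibroblast markers were at 49.7 to 72.3 CPM in treated AGS, mostly PDGFRA at 48.7 to 71.0 CPM, and at 49.9 to 91.0 CPM in treated MKN1, mostly LUM at 40.4 to 84.3 CPM. Without the agent they were at 42.2 to 45.6 CPM and 85.2 to 136 CPM. Endothelial markers were at 0.0304 to 0.364 CPM in treated AGS and 1.64 to 2.44 CPM in treated MKN1, and at 0.600 to 4.60 and 1.41 to 2.41 CPM in the untreated groups. Blood cell markers were at 1030 to 1460 CPM in treated AGS and 24.6 to 40.4 CPM in treated MKN1, nearly all of the AGS sum being lysozyme, LYZ, at 1454, 1024 and 1405 CPM, which glandular stomach cells also make. Untreated AGS held 1060 to 1600 CPM and untreated MKN1 43.9 to 64.8 CPM. The haemoglobin genes HBB, HBA1 and HBA2 had 1520, 196 and 252 summed counts in untreated AGS and 3, 0 and 0 in treated AGS, against 355, 89 and 95 in untreated and 159, 133 and 113 in treated MKN1. Of 14 such markers tested, 6 were called in the difference (42.9%, against 15.7% of all genes), namely these 3 and VWF towards MKN1 and CD68 and COL3A1 towards AGS. COL3A1 lost its call in 3 of the 12 fits that leave out 1 library. The part of these markers in the other results was not tested.

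The largest treated gaps among genes averaging 0.5 CPM or more in the lower and 20 CPM or more in the higher treated group ran in both directions, and KRT16, FN1 and ESRP1, given above, belong to them. On the side of MKN1 stood IGFBP3, which binds insulin-like growth factors, at 3253, 3271 and 3000.1 CPM against 1.64, 0.749 and 0.867, a gap of 11.53 (SE 0.35, adjusted p = 2.73e-11). ALDH1A3, a retinaldehyde dehydrogenase, had 9.03 ± 0.35, ANGPTL2 with 8.80 ± 0.22, and COL7A1, the collagen of anchoring fibrils, with 8.33 ± 0.19. DBN1 had 8.28 ± 0.32 and FGFBP1 8.12 ± 0.35. On the side of AGS stood GASK1B at 171, 207 and 183 CPM against 0.759, 0.689 and 0.180, a gap of -8.46 (SE 0.37, adjusted p = 4.60e-10). FGG, a fibrinogen chain, had -8.44 ± 0.43, EDAR -7.84 ± 0.28, the collagenase MMP1 -7.70 ± 0.66, and ZNF544 -7.22 ± 0.22. The Wnt receptor component LGR5, a stem cell marker of the gut, was at 278, 257 and 322 CPM in treated AGS and 0.972, 1.21 and 1.41 in treated MKN1, and its feedback ubiquitin ligase RNF43 had a gap of -7.42 ± 0.29, with 73.9% of its exonic bases shared with another annotated gene. All libraries of the higher line exceeded all of the other line at these genes. The gap was wider under treatment at COL7A1 (1.93 (SE 0.21, adjusted p = 2.39e-04)), FGFBP1 (1.93 (SE 0.43, adjusted p = 0.00934)) and EDAR (-1.80 (SE 0.34, adjusted p = 0.00436)). It was narrower at IGFBP3 (-4.61 (SE 0.58, adjusted p = 4.99e-04)), whose counts in AGS were 0, 2 and 5 without and 54, 29 and 31 with the agent. ANGPTL2 (-1.41 (SE 0.29, adjusted p = 0.00606)) and ALDH1A3 (-1.96 (SE 0.51, adjusted p = 0.0221)) were narrower as well. ALDH1A3 reached adjusted p = 0.0697 without the second treated AGS library and lost its call in 3 of the 12 fits that leave out 1 library.

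Some genes averaged at least 1 CPM in 1 treated line and had at most 3 counts in each treated library of the other. There were 826 such genes in MKN1 and 70 in AGS. Over the 3 treated libraries TPPP3, a tubulin-binding protein, had 23944 counts in MKN1 and 7 in AGS, a ratio of 3590 after scaling for depth (95% counting interval 1740 to 8930). CCN3, a matricellular protein, had 20185 against 2 (ratio 10600, 2930 to 87500), and IL7R, the interleukin 7 receptor, 19035 against 2 (9990, 2770 to 82500). EREG, the EGF receptor ligand epiregulin, had 18583 against 8 (2440, 1240 to 5650). In AGS, FPR3, a formyl peptide receptor, had 37138 counts against 3 in MKN1 (11800, 4030 to 57200), and EPS8L3 9817 against 7 (1340, 648 to 3320). PRSS2, a trypsinogen, had 6963 against 2 (3320, 918 to 27400). GSTM1, a glutathione transferase, had 6397 counts in AGS and 0 in treated MKN1, and was at least 2030-fold higher in AGS by 3 counts over the group. GSTM1 shares 38.3% of its exonic bases with another gene.

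Subunits of the phosphatases that cantharidin inhibits were split between the lines. Of 22 subunits and regulators of PP2A, PP1 and related phosphatases, 6 were higher in treated MKN1 and 8 in treated AGS, with a median gap of -0.14 against -0.41 in untreated cells. PPP2CA, the main catalytic subunit of PP2A, was at 299.6, 305 and 309 CPM in treated AGS and 389, 404 and 343 in treated MKN1, a gap of 0.32 (SE 0.12, adjusted p = 0.0306). Its paralog PPP2CB was at 152, 167 and 152 CPM against 104, 98.9 and 127, a gap of -0.51 (SE 0.11, adjusted p = 8.39e-04). The MKN1 libraries were the higher ones for PPP2CA and the lower ones for PPP2CB, without overlap in either. Both gaps were nearly the same in untreated cells, at 0.35 and -0.54. The PP1 catalytic subunits had treated gaps of -0.19 ± 0.14 for PPP1CA and 0.19 ± 0.10 for PPP1CB, which did not pass (adjusted p = 0.251 and 0.101), and -0.30 (SE 0.10, adjusted p = 0.0177) for PPP1CC. The difference of the gaps was called at 4 genes (18.2%, against 15.7% of all genes), all towards MKN1. PPP2R5B, a regulatory subunit of the B56 family, was at 13.4, 19.3 and 13.8 CPM in treated AGS and 29.5, 37.7 and 38.8 in treated MKN1. Its gap opened from 0.06 to 1.19 ± 0.17, a difference of 1.13 (SE 0.24, adjusted p = 0.00752). PPP2R2D had a difference of 0.70 (SE 0.16, adjusted p = 0.0118). The scaffold PPP2R1A reached adjusted p = 0.0777 without the third untreated AGS library, and PPP1CC 0.121 without the first treated AGS library. These 2 lost their calls in 6 and 9 of the 12 fits that leave out 1 library.

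Cholesterol synthesis genes were the list in which most genes changed sides. Cells make cholesterol from acetyl-CoA through mevalonate and squalene, and most enzymes of the route are switched on together by the transcription factor SREBP2 when membrane sterol is low. Of 27 genes of synthesis and sterol sensing, 18 were higher in treated MKN1 and 5 in treated AGS, whereas 4 and 19 were so in untreated cells. The median gap was 0.54 under treatment and -0.77 without it. The difference of the gaps was called at 18 genes, all towards MKN1, in 8 of which the gap became wider and in 10 narrower. That count was 15 to 19 over the fits that leave out 1 library, and the median difference was 1.12 where all genes had a median of 0.03.

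Each treated library shows the same side. Against the mean of treated AGS, the median log2 level of the list was 0.55, 0.46 and 0.58 higher in the treated MKN1 libraries. Against the mean of treated MKN1, it was 0.44, 0.64 and 0.49 lower in the treated AGS libraries. The untreated MKN1 libraries lay 0.70, 0.67 and 0.81 below untreated AGS by the same measure. Between the states the median change over the list was -0.77 in AGS and 0.39 in MKN1, so the lines moved in opposite directions.

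DHCR7, MSMO1 and LSS, enzymes of the middle and final steps, changed sides. Other enzymes of these steps did not, as NSDHL was higher in MKN1 and TM7SF2 higher in AGS in both states. DHCR7, which makes the last reduction to cholesterol, was at 37.3, 34.6 and 41.96 CPM in treated AGS and 72.3, 58.2 and 84.6 in treated MKN1. Without the agent it was at 122, 109.7 and 122 CPM in AGS and 38.9, 43.6 and 40.3 in MKN1. MKN1 was the higher line under treatment and the lower one without it, and neither pair of groups overlapped. The treated gap was 0.92 (SE 0.13, adjusted p = 4.08e-05), the untreated gap -1.53 (SE 0.13, adjusted p = 4.03e-07) and the difference 2.44 (SE 0.19, adjusted p = 2.38e-05). MSMO1, a demethylating oxidase of the sterol ring, was at 61.99, 60.04 and 56.2 CPM in treated AGS and 101, 71.1 and 67.2 in treated MKN1, with gaps of 0.43 ± 0.15 and, without the agent, -0.84 ± 0.15. LSS, which closes squalene epoxide into lanosterol, was at 66.3, 52.8 and 64.2 CPM against 83.01, 66.4 and 84.1, with gaps of 0.35 ± 0.14 and -0.71 ± 0.14. All 3 genes thus changed sides, although the gaps in MSMO1 and LSS were smaller than that in DHCR7.

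The stretches upstream of these 3 genes are shown beside those of 2 genes of the same list whose difference was not called, SREBF1 and STARD4. Only genes with a long upstream stretch outside annotated exons were eligible, and the 3 had the smallest adjusted p among the called ones. MVK, CYP51A1, IDI1, INSIG1 and MVD had smaller adjusted p than MSMO1 and LSS, but more of their upstream bases lie in annotated exons. Sequences are from RefSeq on build GRCh38.p14, run 5′ to 3′ on the strand of the gene, begin 250 bases before the annotated start of 1 transcript per gene, and stop where an annotated exon begins. They lie upstream of that transcript's start and outside annotated exons. The stretch of DHCR7 lies inside the annotated span of its gene, which extends farther upstream. Capitals mark CCAAT or its reverse complement ATTGG, the box bound by NF-Y, a partner of the SREBP factors at many sterol genes. DHCR7 is at chr11:71448436-71448643 on the minus strand, MSMO1 at chr4:165327419-165327622 on the plus strand and LSS at chr21:46228825-46229024 on the minus strand. SREBF1 is at chr17:17837003-17837236 and STARD4 at chr5:111512591-111512785, both on the minus strand.
DHCR7: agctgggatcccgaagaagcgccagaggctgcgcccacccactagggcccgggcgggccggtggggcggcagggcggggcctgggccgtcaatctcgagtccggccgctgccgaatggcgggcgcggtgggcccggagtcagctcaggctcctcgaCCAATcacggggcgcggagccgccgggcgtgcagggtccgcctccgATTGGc
MSMO1: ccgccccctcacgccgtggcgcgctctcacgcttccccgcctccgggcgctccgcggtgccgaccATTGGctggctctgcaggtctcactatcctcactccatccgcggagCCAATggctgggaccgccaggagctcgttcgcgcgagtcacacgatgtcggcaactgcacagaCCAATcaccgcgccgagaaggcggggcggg
LSS: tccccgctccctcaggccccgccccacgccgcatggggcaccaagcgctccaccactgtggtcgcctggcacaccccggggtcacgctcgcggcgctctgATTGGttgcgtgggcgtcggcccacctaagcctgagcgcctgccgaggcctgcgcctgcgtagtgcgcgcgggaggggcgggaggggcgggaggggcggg
SREBF1: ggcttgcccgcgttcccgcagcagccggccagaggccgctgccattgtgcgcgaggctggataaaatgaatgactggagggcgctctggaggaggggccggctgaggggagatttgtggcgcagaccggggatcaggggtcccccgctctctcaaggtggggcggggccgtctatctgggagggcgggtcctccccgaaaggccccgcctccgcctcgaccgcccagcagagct
STARD4: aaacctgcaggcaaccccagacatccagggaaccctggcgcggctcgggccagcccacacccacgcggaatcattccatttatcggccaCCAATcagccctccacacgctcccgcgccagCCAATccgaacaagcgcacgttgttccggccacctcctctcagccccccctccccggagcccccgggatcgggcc

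Within the 250 bases before the start, CCAAT on either strand was found in 15 of the 20 list members with an entry, out of 27 tested, and in 9021 of 27305 promoters of all genes (33.0%). It was present in STARD4, whose difference was not called, and absent from the stretch of SREBF1. The sterol regulatory element in the form TCACNCCAC, searched on both strands, was found in 1 of the 20, SREBF2, where it did not overlap the CCAAT box, and in 239 of all promoters (0.875%). Such matches describe letters in this window and are not evidence of binding.

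Several enzymes of the mevalonate steps moved towards MKN1. HMGCS1, an early synthase of the route, had a treated gap of 0.92 ± 0.27 and a difference that reached adjusted p = 0.0534 without the first treated AGS library. The kinase MVK was at 6.97, 6.87 and 8.20 CPM in treated AGS and 13.7, 13.4 and 16.3 in treated MKN1, and its gap reversed from -0.96 ± 0.15 to 0.98 ± 0.15. MVD, the decarboxylase, reversed from -0.80 ± 0.15 to 0.54 ± 0.15. IDI1, the isomerase that follows, was at 38.1, 36.5 and 42.1 CPM against 73.7, 54.8 and 64.3 and reversed from -1.35 ± 0.20 to 0.72 (SE 0.20, adjusted p = 0.00533). No MKN1 library overlapped AGS at these genes under treatment. ACAT2, which feeds the route with acetoacetyl-CoA, also reversed, from -1.13 to 0.67, but 52.3% of its exonic bases are shared with another gene. The difference was not called at PMVK and FDPS (adjusted p = 0.153 and 0.0603). PMVK stayed higher in every treated AGS library, at 19.3, 15.2 and 18.7 CPM against 12.7, 10.6 and 13.6 in treated MKN1.

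At the squalene steps the gap closed. FDFT1, squalene synthase, was at 98.7, 93.05 and 98.3 CPM in treated AGS and 109, 103 and 119 in treated MKN1, and its treated gap of 0.19 ± 0.09 did not pass (adjusted p = 0.0725) where the untreated gap was -1.14 ± 0.09. SQLE, the epoxidase, was at 53.99, 55.2 and 73.1 CPM against 74.8, 57.6 and 89.9, with 38.2, 34.8 and 39.00 in untreated MKN1 and 128, 119 and 115 in untreated AGS. Its treated gap was 0.29 (SE 0.16, adjusted p = 0.120) and its difference 1.98 (SE 0.22, adjusted p = 2.65e-04). The treated gap in SQLE therefore did not pass the test, although the untreated gap of -1.69 did. SC5D, a desaturase of late sterols, was wider, at 0.56 ± 0.11 against -0.20 ± 0.11. CYP51A1 reversed as well, with 83.2% of its exonic bases shared with another gene.

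Genes that sense sterol were mixed. INSIG1, which retains SREBP in the endoplasmic reticulum and is itself an SREBP target, was at 26.04, 22.02 and 23.6 CPM in treated AGS and 73.2, 37.8 and 79.3 in treated MKN1. It reversed from -0.77 (SE 0.21, adjusted p = 0.00531) to 1.41 (SE 0.21, adjusted p = 5.53e-05), a difference of 2.18 (SE 0.30, adjusted p = 7.48e-04). The transcription factors were lower in MKN1 throughout. SREBF2 was at 204, 192 and 189 CPM in treated AGS and 68.3, 66.2 and 71.05 in treated MKN1, a gap of -1.51 (SE 0.09, adjusted p = 1.21e-08) and a difference of -0.16 ± 0.13 (adjusted p = 0.416). SREBF1 had a treated gap of -1.47 ± 0.11 and an untreated one of -1.71 ± 0.12. Their transcripts therefore lay on the side of AGS in both states, opposite to most of the enzymes under treatment.

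**Figure D3:**
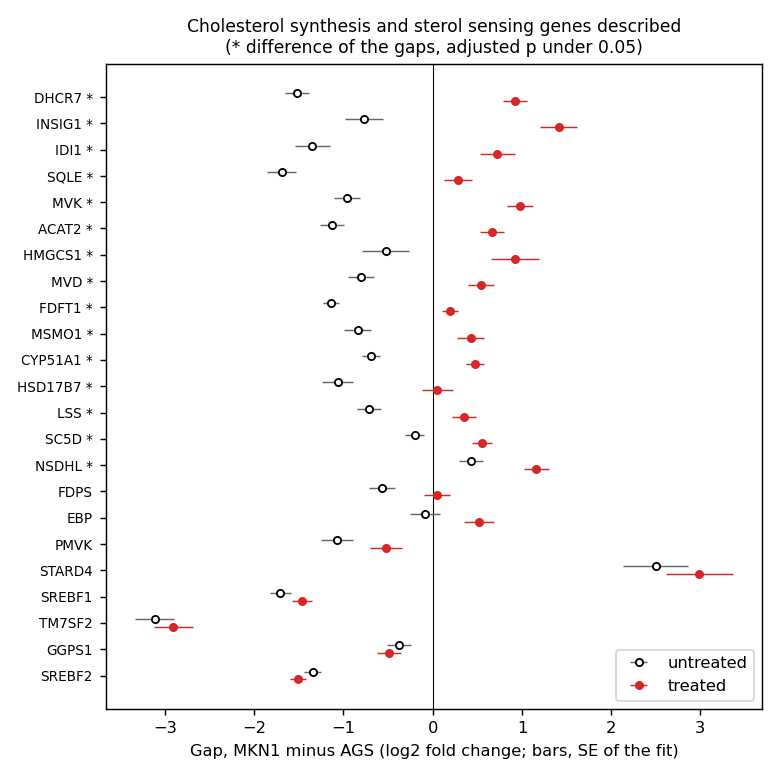
Untreated and treated gaps of cholesterol synthesis and sterol sensing genes, leaving out list members not reported here, as log2 of MKN1 over AGS, 1 row per gene, with bars of 1 SE. At DHCR7 the gap runs from -1.53 to 0.92 and at INSIG1 from -0.77 to 1.41, whereas SREBF2 stays near -1.5.

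Fatty acid genes had no common direction. Of 16 tested, 7 were higher in treated MKN1 and 4 in treated AGS, and the median gap was -0.06, which turned to 0.04 with upper-quartile scaling. FASN, fatty acid synthase, was at 124, 109.7 and 129 CPM in treated AGS and 209, 143 and 209 in treated MKN1, where all MKN1 libraries were the higher ones. Its gap reversed from -1.12 (SE 0.14, adjusted p = 1.36e-05) to 0.63 (SE 0.14, adjusted p = 0.00154), with a difference of 1.75 (SE 0.20, adjusted p = 2.94e-04). ACLY, which supplies cytosolic acetyl-CoA, moved towards MKN1, from -0.23 ± 0.13 to 0.74 ± 0.13. MLXIPL, a glucose-responsive factor, moved towards AGS, from -1.07 ± 0.28 to -3.18 ± 0.30. The desaturase FADS1 and the elongase ELOVL5 were far higher in MKN1 under treatment, with gaps of 7.63 ± 0.17 and 10.34 ± 0.27, and their differences were not called.

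Target genes of the YAP and TAZ coactivators, which report cell shape and contact, moved towards AGS. Of 22 tested, 13 were higher in treated MKN1 and 6 in treated AGS, against 16 and 3 in untreated cells, and the median gap was 1.18 against 1.77. The difference was called at 10 genes, all towards AGS, 3 wider and 7 narrower. ANKRD1, a nuclear ankyrin-repeat protein, was at 200.4, 321 and 209 CPM in treated AGS and 5.19, 5.97 and 6.89 in treated MKN1, with 48.8, 95.5 and 75.4 and 56.8, 54.2 and 11.8 in the untreated groups. The AGS libraries were high and the MKN1 libraries low under treatment, and the gap was -5.34 (SE 0.52, adjusted p = 9.66e-07) where the untreated one was -0.84 (SE 0.43, adjusted p = 0.102). CCN2, connective tissue growth factor, was at 71.8, 185 and 90.1 CPM in treated AGS and 150.3, 155 and 167 in treated MKN1, where the second AGS library lay above all MKN1 libraries and the groups overlapped. Its gap closed from 3.43 (SE 0.46, adjusted p = 2.19e-05) to 0.45 (SE 0.42, adjusted p = 0.362). CCN1, a related matrix protein, narrowed from 5.12 ± 0.25 to 3.29 ± 0.23, and the coagulation receptor F3 from 5.20 ± 0.36 to 3.04 ± 0.33. FSTL1 and CRIM1 narrowed as well, to 8.66 ± 0.16 and 1.83 ± 0.14. The narrowing of FSTL1 rests on low counts in AGS, at 8, 5 and 7 without and 18, 13 and 17 with the agent. DLC1, a GTPase-activating protein, changed sides from 0.40 ± 0.13 to -0.91 ± 0.13. The Hippo partner TEAD1 and the angiomotin AMOTL2 lost their calls in 6 and 7 of the 12 fits that leave out 1 library. Adjusted p rose to 0.0784 for TEAD1 without untreated AGS library 3 and to 0.0816 for AMOTL2 without treated AGS library 2.

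Cell-matrix genes showed the same tilt. Among 23 integrin, laminin and basement membrane genes, 12 were higher in treated MKN1 and 9 in treated AGS, and the difference was called at 8, of which 7 pointed towards AGS. HSPG2, the proteoglycan perlecan, was at 223, 286 and 229 CPM in treated AGS and 75.4, 65.9 and 87.1 in treated MKN1. Its gap opened from -0.14 (SE 0.15, adjusted p = 0.444) to -1.69 (SE 0.15, adjusted p = 5.48e-07). ITGA3, an integrin chain that binds laminin, narrowed from 3.36 ± 0.18 to 2.13 ± 0.17, and ITGA1 from 2.03 ± 0.18 to 0.29 ± 0.18, which no longer passed. ITGB4, the hemidesmosome chain, widened from -1.02 ± 0.17 to -2.11 ± 0.17. NID1, which links laminin to collagen, was the gene that moved towards MKN1, from -6.56 ± 0.35 to -4.52 ± 0.30.

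Among 21 genes of plasminogen activation and matrix proteolysis, 11 were higher in treated MKN1 and 6 in treated AGS. The difference was called at 4 (19.0%, against 15.7% of all genes), all towards AGS. TIMP3, a metalloproteinase inhibitor bound to matrix, was at 267, 261 and 386 CPM in treated MKN1 and 0.243, 0.232 and 0.252 in treated AGS, a gap of 10.28 ± 0.28 against 13.59 ± 0.34. This narrowing rests on 2, 2 and 0 counts in untreated AGS against 8, 9 and 9 in treated AGS, and its size is uncertain. PLAU, urokinase, narrowed from 10.50 ± 0.47 to 7.23 ± 0.36. Of 14 receptors and ligands of the ERBB and MET families, 8 were higher in treated MKN1 and 5 in treated AGS. EGFR was at 521, 696 and 508 CPM in treated MKN1 and 141, 199 and 139 in treated AGS, a gap of 1.85 (SE 0.20, adjusted p = 2.51e-06). ERBB3 and the MET relative MST1R lay on the side of AGS, at -3.70 ± 0.23 and -3.51 ± 0.19. The gap in EGFR was smaller than the untreated 2.91, and that difference reached adjusted p = 0.0561 without the first untreated AGS library. This call was lost in 2 of the 12 fits that leave out 1 library. Of 20 output and feedback genes of ERK signalling, 9 were higher in treated MKN1 and 7 in treated AGS, and the difference was called at 0 in edgeR's test, with 2 at unadjusted p under 0.05, 0 in DESeq2 and 1 in limma-voom. DUSP1, a phosphatase of MAP kinases, was at 151, 209 and 234 CPM in treated MKN1 and 10.8, 14.7 and 12.7 in treated AGS, a gap of 3.96 ± 0.21 against 3.25 ± 0.20 without the agent.

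**Figure D4:**
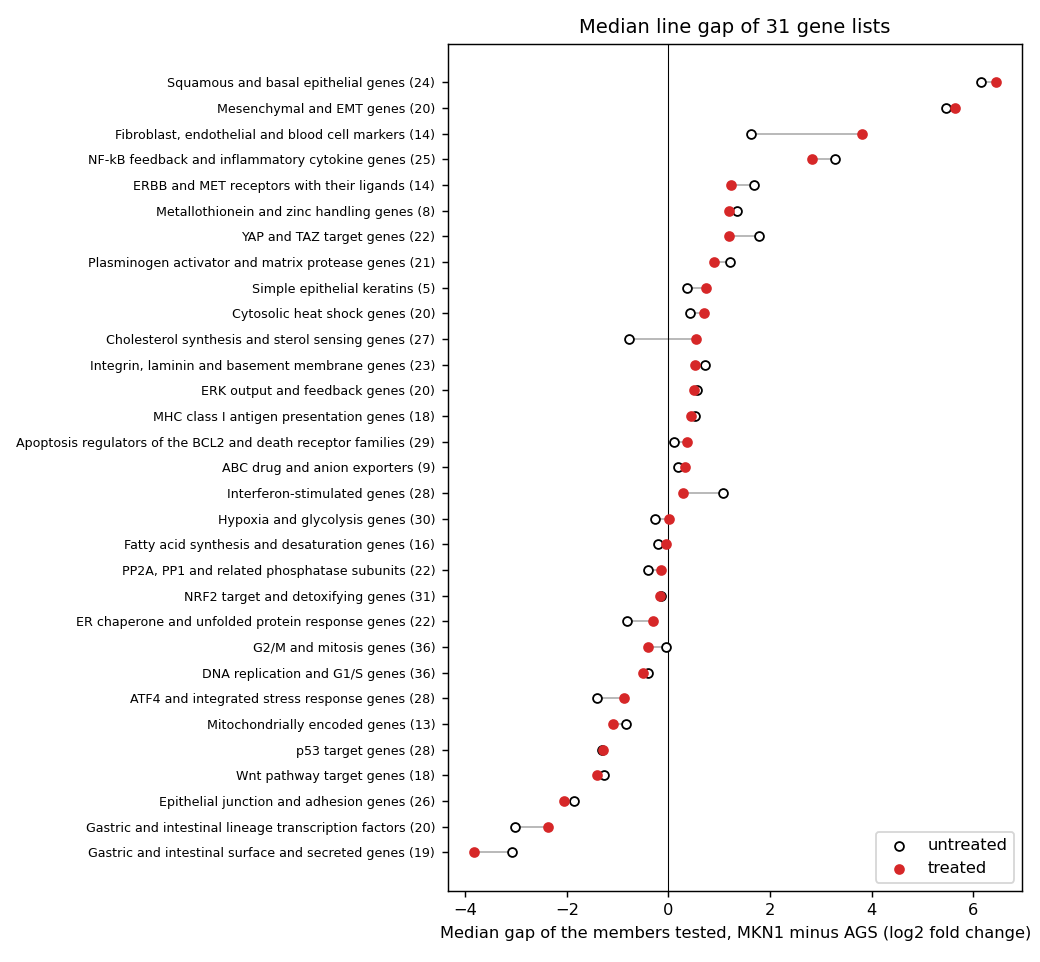
Median treated and untreated gap of each gene list, as log2 of MKN1 over AGS, with the number of genes tested. Most lists keep their place, and the cholesterol list crosses 0, from -0.77 in untreated to 0.54 in treated cells.

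Target genes of p53 were lower in treated MKN1, a line in which 6 of 28 were higher and 17 lower than in treated AGS. The median gap was -1.29 under treatment and -1.30 without it. Differences were called at 10 genes, 9 of them towards MKN1 and 9 of them narrower, and the count towards MKN1 was 4 without treated AGS library 2 or 3 and 5 without treated AGS library 1 or untreated AGS library 3. BTG2, an antiproliferative factor, was at 52.5, 47.2 and 51.4 CPM in treated AGS, 8.41, 12.01 and 10.5 in treated MKN1, 87.4, 91.2 and 83.1 in untreated AGS and 6.97, 6.38 and 7.60 in untreated MKN1. The treated MKN1 libraries were the lower ones without overlap, and the gap narrowed from -3.64 (SE 0.14, adjusted p = 2.05e-10) to -2.29 (SE 0.13, adjusted p = 7.85e-09). TP53I3 closed from -1.22 ± 0.14 to -0.04 ± 0.14, and TP53INP1 narrowed from -2.27 ± 0.15 to -1.38 ± 0.14. The p53 ligase MDM2 and the pore former BAX kept treated gaps of -2.05 ± 0.13 and -2.16 ± 0.15. Their differences reached adjusted p = 0.0846 without the second untreated MKN1 library and 0.0713 without the third untreated AGS library. These calls were lost in 9 and 7 of the 12 fits that leave out 1 library. XPC, a DNA damage sensor, moved the other way, from -0.66 ± 0.11 to -1.48 ± 0.11.

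Genes of the integrated stress response, driven by ATF4, were lower in treated MKN1 at 16 of 28 and higher at 8, with a median of -0.88 against -1.41. By library, the list lay at -1.54, -0.63 and -0.55 in treated MKN1 against mean treated AGS, and at -1.72, -1.66 and -0.75 in untreated MKN1 against mean untreated AGS. The first treated library thus lay near the lower untreated ones and the third untreated library near the higher treated ones, and the treated median was -0.56 without the first treated MKN1 library. DDIT3, a proapoptotic factor of that response, was at 41.8, 38.7 and 39.7 CPM in treated AGS and 30.4, 129.6 and 65.6 in treated MKN1. The first MKN1 library lay below and the others above the AGS libraries, so the groups overlapped. Its gap was 0.91 (SE 0.35, adjusted p = 0.0322) after -1.55 (SE 0.35, adjusted p = 0.00176), with 39.6% of its exonic bases shared with another gene. SLC1A5, a glutamine transporter, narrowed from -3.49 ± 0.31 to -1.69 ± 0.28.

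Chaperones of the endoplasmic reticulum lost part of their gap. In untreated cells 18 of 22 were higher in AGS and 3 in MKN1, with a median of -0.81, and under treatment 12 and 3, with a median of -0.31. The gaps of the states differed at 10, 8 towards MKN1 and 2 towards AGS, and 9 were narrower. CALR, a lectin chaperone, was at 642, 633 and 723 CPM in treated AGS and 858, 776 and 1169 in treated MKN1, and reversed from -0.64 (SE 0.14, adjusted p = 9.87e-04) to 0.49 (SE 0.14, adjusted p = 0.00603). CRELD2, MANF, SDF2L1 and PDIA4 all closed or narrowed, to treated gaps of -0.30 ± 0.15, 0.19 ± 0.14, -0.04 ± 0.21 and -0.14 ± 0.10 that did not pass. ATF6, a sensor of unfolded protein, widened from -0.67 ± 0.11 to -1.28 ± 0.11. Cytosolic heat shock genes were higher in treated MKN1 at 17 of 20 and in treated AGS at 1, against 10 and 2 without the agent, with medians of 0.70 and 0.42. HSF1, their activator, was at 96.03, 109 and 120.1 CPM in treated MKN1 and 34.6, 33.01 and 35.9 in treated AGS, with almost the same gap in both states (1.65 and 1.69). AHSA1, a cochaperone of HSP90, widened from 0.70 ± 0.12 to 1.51 ± 0.12, and FKBP4 changed sides from -0.41 ± 0.14 to 0.74 ± 0.14. A called difference was found at 4 of the 20 heat shock genes, all towards MKN1, a share little above the 15.7% of all genes. That count was 8 without treated MKN1 library 2. The small heat shock protein HSPB8 closed, from -1.57 ± 0.15 to -0.36 ± 0.15.

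Of 29 apoptosis regulators, 13 were higher in treated MKN1 and 9 in treated AGS. BIRC3, an inhibitor of apoptosis under NF-kB control, was at 240.0, 316 and 178 CPM in treated MKN1 and 13.3, 15.8 and 12.00 in treated AGS. BCL2L1, an antiapoptotic BCL2 relative, had a gap of -1.72 ± 0.12, with 43.0% of its exonic bases shared with another gene. BIK, a BH3-only killer, was at 7.70, 5.86 and 7.13 CPM in treated AGS and 4.46, 8.67 and 8.41 in treated MKN1, overlapping, and its gap closed from -1.75 (SE 0.24, adjusted p = 2.50e-05) to 0.06. CASP8 and its inhibitor CFLAR moved in opposite directions, with differences of 0.71 ± 0.16 and -0.90 ± 0.20. Differences were called at 6 of the 29 (20.7%, against 15.7% of all genes), 4 towards MKN1. The count was 12 without the third untreated MKN1 library.

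Detoxifying genes under NRF2 were split, with 13 higher in treated MKN1 and 12 in treated AGS among 31. The peroxidase GPX2 was at 46.2, 43.3 and 51.3 CPM in treated AGS and 0.304, 0.197 and 0.232 in treated MKN1, and ALDH3A1 had a gap of -6.39 ± 0.23. OSGIN1, an oxidative stress gene, closed from -1.98 ± 0.24 to 0.12 ± 0.23, and TKT, transketolase, opened from -0.04 ± 0.12 to 1.03 ± 0.12. ABCC3, an exporter of conjugated organic anions, was at 121, 167 and 138 CPM in treated AGS and 37.7, 40.2 and 16.7 in treated MKN1, with 44.8, 53.99 and 51.2 and 72.5, 75.8 and 30.7 in untreated cells. Treated AGS was high and treated MKN1 low, and the gap opened from 0.25 (SE 0.33, adjusted p = 0.514) to -2.17 (SE 0.34, adjusted p = 8.59e-05). Among 9 ABC exporters, 5 were higher in treated MKN1 and 4 in treated AGS, and ABCC3 was the one with a called difference. ABCC1, a broad drug exporter, had gaps of -1.01 and -0.97.

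Glycolysis and hypoxia genes numbered 12 on each side under treatment, of 30, against 8 higher in MKN1 and 14 in AGS without it. The gaps of the states differed at 11, 8 towards MKN1. LDHA, lactate dehydrogenase, widened from 1.31 ± 0.12 to 2.14 ± 0.13. The pyruvate kinase PKM closed from -1.09 ± 0.17 to 0.15 ± 0.17, and TPI1 from -0.94 ± 0.14 to -0.12 ± 0.14. PFKL, a phosphofructokinase, went towards AGS and was at 109.7, 106 and 109 CPM in treated AGS and 39.6, 33.6 and 36.7 in treated MKN1, a difference of -1.15 (SE 0.16, adjusted p = 7.00e-04). The glucose transporter SLC2A3 widened on the side of AGS, from -0.77 ± 0.16 to -1.98 ± 0.16. The count towards MKN1 was 5 without untreated AGS library 3, treated AGS library 2 or untreated MKN1 library 1. All but 1 of 13 mitochondrially encoded genes were higher in treated AGS, with a median gap of -1.09 against -0.85. Metallothioneins were on the side of MKN1, at 6 of 8 genes of zinc handling. MT1X was at 34.9, 30.2 and 31.2 CPM in treated MKN1 and 10.2, 6.92 and 5.71 in treated AGS, and its gap narrowed from 4.08 (SE 0.34, adjusted p = 2.25e-07) to 2.08 (SE 0.32, adjusted p = 6.37e-05). The zinc importer SLC39A10 moved towards AGS, from -0.41 ± 0.21 to -1.78 ± 0.22.

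Proliferation genes tended to be lower in treated MKN1. Of 36 genes of DNA replication, 18 were higher in treated AGS and 3 in treated MKN1, with a median gap of -0.50, and of 36 mitosis genes 15 and 6, with a median of -0.41 against -0.04 in untreated cells. Of each list 58.3% passed, fewer than the 68.1% of all genes. Against mean treated AGS, the mitosis list lay at a median of 0.02, -0.53 and -0.81 in the treated MKN1 libraries, so the first did not share the shift. Its median gap was -0.23 without the third treated MKN1 library. LIG1, the ligase of lagging-strand synthesis, was at 76.7, 73.3 and 79.7 CPM in treated AGS and 24.99, 16.6 and 17.6 in treated MKN1. AURKB, a mitotic kinase, was at 63.1, 58.2 and 67.05 CPM against 24.6, 19.2 and 18.5, a gap of -1.60 ± 0.17 where the untreated one was -0.99 ± 0.17. Neither overlapped between the lines. A called difference was found at 1 of 36 replication genes and at 0 of 36 mitosis genes in edgeR's test, with 6 and 5 at unadjusted p under 0.05. DESeq2 called 3 and 1 and limma-voom 2 and 1. The edgeR call, E2F1, reached adjusted p = 0.0606 without the first untreated AGS library. It was lost in 3 of the 12 fits that leave out 1 library. Wnt target genes were higher in treated AGS at 12 of 18 and in treated MKN1 at 4. NOTUM, a secreted Wnt deacylase, widened from -1.68 ± 0.28 to -3.54 ± 0.31, and CD44 was the main exception on the side of MKN1, at 1428, 1511 and 1572 CPM against 27.5, 29.7 and 30.6.

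Inflammatory genes under NF-kB were higher in treated MKN1 at 22 of 25 and in treated AGS at 2, with a median gap of 2.82 against 3.28. TNFAIP3, a ubiquitin-editing brake on NF-kB, was at 195, 289.7 and 212 CPM in treated MKN1 and 8.70, 10.1 and 8.95 in treated AGS. TNFAIP2 was at 704, 733 and 484 CPM against 90.8, 92.97 and 88.7 and narrowed from 4.21 (SE 0.16, adjusted p = 1.43e-10) to 2.82 (SE 0.15, adjusted p = 2.69e-09). Interferon-stimulated genes were closer between the lines, with 12 of 28 higher in treated MKN1 and 9 in treated AGS, against 17 and 5 in untreated cells. Their median gap was 0.29 against 1.07. The treated MKN1 libraries lay at 0.61, 0.57 and -0.31 against mean treated AGS, the third on the other side of 0. Without it the median gap was 0.55, and without the first treated MKN1 library it was 0.14. STAT2, a transducer of interferon signals, was at 74.00, 78.7 and 70.2 CPM in treated AGS and 39.6, 26.8 and 29.02 in treated MKN1, and its gap opened from -0.11 ± 0.13 to -1.22 (SE 0.13, adjusted p = 2.42e-06). Differences were called at 5 interferon-stimulated genes (17.9%, against 15.7% of all genes), all towards AGS. That count was 12 without the third untreated MKN1 library and 1 without untreated AGS library 1 or 2 or treated AGS library 2 or 3. Of 18 genes of class I antigen presentation, 10 were higher in treated MKN1 and 6 in treated AGS. HLA-C was at 148, 144 and 169.9 CPM in treated MKN1 and 18.2, 18.4 and 15.6 in treated AGS. ERAP1 and ERAP2, which trim peptides, moved towards AGS, with differences of -1.18 ± 0.19 and -1.55 ± 0.28, as did NLRC5 with -0.72 ± 0.13.

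Across all genes, the widest changes of the gap included genes with no count left in treated AGS. RFLNB, BOC, ULK2, PCLO, GATA2, KCNJ12, OSBPL6 and KIRREL1 had 0 counts in all 3 treated AGS libraries and 9.87 to 90.3 CPM in the treated MKN1 libraries. GATA2, a zinc-finger factor, had 9, 4 and 4 counts in untreated and 0, 0 and 0 in treated AGS, and was at 44.4, 38.2 and 51.7 CPM in treated MKN1. RFLNB had 87, 31 and 59 counts in untreated and 0, 0 and 0 in treated AGS, and was at 18.3, 13.1 and 24.1 CPM in treated MKN1. The fitted differences at such genes depend on the prior count and are no measure of size. KCNJ12, OSBPL6 and KIRREL1 lost their calls in some fits without 1 library, up to adjusted p = 0.0775, 0.0965 and 0.0673. In all, 23 genes had 0 counts in every treated AGS library and at least 5 in each untreated one, whereas 3 had the reverse. In MKN1 these counts were 2 and 4. The narrower genes at the top were likewise near the counting limit in AGS. QKI, an RNA-binding protein, was at 179, 231 and 158 CPM in treated MKN1 and had 0, 0 and 0 counts in untreated and 6, 6 and 8 in treated AGS. PNMA5 had 0, 0 and 0 and 12, 4 and 5 counts, KCTD12 0, 0 and 0 and 7, 3 and 2. SCEL, sciellin of the cornified envelope, had 0, 0 and 0 counts in untreated and 5, 4 and 15 in treated MKN1.

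Genes averaging 1 CPM or more in all 4 groups rest on more reads, and those below were chosen after their values were seen. ZDHHC11, a palmitoyltransferase, was at 1.22, 1.11 and 1.65 CPM in treated AGS and 60.8, 46.1 and 57.1 in treated MKN1, and widened from 1.71 (SE 0.16, adjusted p = 9.00e-07) to 5.36 (SE 0.20, adjusted p = 1.48e-10). IL11, a cytokine of the interleukin 6 family, was at 0.852, 1.26 and 1.34 CPM against 24.7, 45.2 and 37.2 and widened from 2.26 ± 0.36 to 4.94 ± 0.41. GPCPD1, a phosphodiesterase of choline metabolism, was at 155, 175 and 164 CPM in treated AGS and 33.9, 46.1 and 24.1 in treated MKN1, and opened from -0.01 to -2.25 (SE 0.21, adjusted p = 8.21e-07). In MTMR11 and TRAPPC6A the lines separated towards AGS, at -3.64 ± 0.25 and -2.69 ± 0.23, and in SALL4 and PPP1R3F towards MKN1, at 2.93 ± 0.30 and 3.75 ± 0.26. H19, an imprinted long noncoding RNA, was at 254, 127 and 165 CPM in treated AGS and 4319.9, 3776 and 3357 in treated MKN1, and narrowed from 6.70 ± 0.27 to 4.39 ± 0.25. ADGRB2 and SECTM1 narrowed on the side of MKN1, to 0.73 ± 0.20 and 0.87 ± 0.19, and SLC16A13, a monocarboxylate transporter, on that of AGS, to -1.64 ± 0.38.

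In the largest reversals the lines traded places. TGM2, a transglutaminase, was at 106, 108 and 107 CPM in treated AGS and 31.9, 41.6 and 33.9 in treated MKN1, and at 36.8, 27.5 and 30.4 and 82.5, 97.8 and 114 in the untreated groups. AGS was the higher line with the agent and MKN1 without it, with no overlap in either state, and the gap went from 1.63 (SE 0.15, adjusted p = 5.11e-07) to -1.58 (SE 0.15, adjusted p = 6.65e-07). NEAT1, the long noncoding RNA of paraspeckles, was at 2343, 1861 and 2092 CPM in treated AGS and 586, 873 and 427 in treated MKN1, and went from 0.82 (SE 0.21, adjusted p = 0.00401) to -1.74 (SE 0.22, adjusted p = 1.04e-05). TSPOAP1, TMEM217, HYAL3 and the transporter ABCA13 went the other way, from -2.77 ± 0.30, -2.40 ± 0.35, -0.65 ± 0.26 and -1.45 ± 0.20 to 3.62 ± 0.33, 1.47 ± 0.35, 3.04 ± 0.28 and 1.20 ± 0.20. Their treated MKN1 libraries all exceeded the treated AGS libraries.

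**Figure D5:**
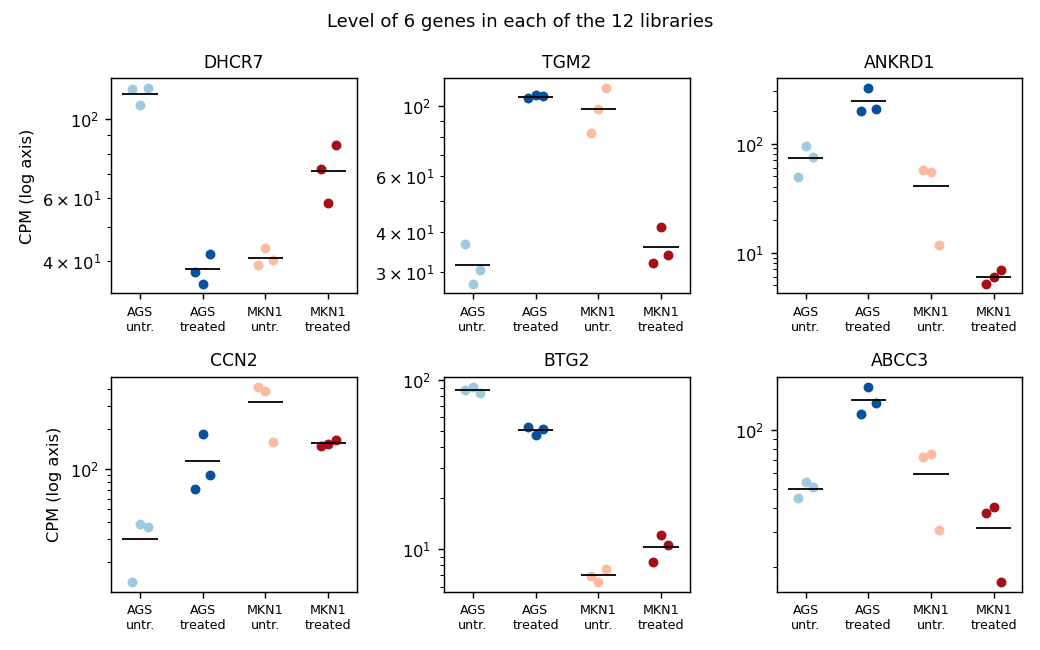
Level of DHCR7, TGM2, ANKRD1, CCN2, BTG2 and ABCC3 in each of the 12 libraries, in CPM on a log axis, 1 point per library with a bar at the group mean. DHCR7 and TGM2 trade places between the lines, ANKRD1 and ABCC3 separate under treatment, CCN2 comes together and BTG2 comes closer.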

How the data were processed

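RNA from 12 cultures of 2 human gastric cancer lines was sequenced, with 3 libraries per group. The authors deposited a table of raw counts for 32269 Ensembl genes. Reads were aligned with HISAT2 2.0.4 to hg38 (GRCh38) per the submitters' processing notes, whereas no source used here names the counting tool, annotation or strand setting. The kit does not mark strand per the labels' protocols, so overlapping genes cannot be told apart, and overlaps above 30% of exonic bases are stated beside most of the genes described. All rows name a gene and entered library sizes.

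Counts were tested with edgeR 4.0.16 (R 4.3.3, quasi-likelihood, TMM scaling, filterByExpr, 20280 genes) in 1 fit over the 12 libraries, with Benjamini-Hochberg adjustment over all genes and a threshold of 0.05. The fit had 8 residual degrees of freedom. Contrasts were treated MKN1 minus treated AGS, untreated MKN1 minus untreated AGS, and their difference. Libraries within each group differed by more than counting error. The members and the 31 gene lists were chosen with earlier results of these data known. Some genes of these lists that are absent from the table were not analysed here, and some members counted in the lists are not reported by name.

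Named genes follow a rule. These are the 8 largest treated gaps in each direction, 6 genes per line with at most 3 counts in each treated library of the other, the 8 largest wider and narrower and 6 largest reversed differences, and per list the smallest adjusted p. Genes averaging 1 CPM or more in all 4 groups were added after the values were seen. Alternatives covered scaling (DESeq2 1.42.0 factors, upper quartile, totals), filters, DESeq2 and limma-voom 3.58.1 tests, GC and length, a replicate block, a fold threshold and leaving out each library. Promoter sequences are RefSeq's.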

Additional observations from a re-analysis of the deposited data

Results flagged for a closer look

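All results here were selected because the gap between the lines differed between treated and untreated cells in edgeR's test of that difference. The difference was called at 3180 genes. Values below are differences of the gaps, treated minus untreated, as log2 of MKN1 over AGS, so a positive value lies towards MKN1.

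Genes whose fitted value rests on libraries near 0 counts in 1 group were RFLNB (8.78), BOC (7.56), ULK2 (6.4), PCLO (6.22), GATA2 (5.90), KCNJ12 (5.67), OSBPL6 (5.61) and KIRREL1 (4.99), all at 0 counts in treated AGS. SCEL (5.84) was at 0 counts in untreated MKN1. PNMA5 (-5.64), QKI (-5.56), KCTD12 (-4.80), EDIL3 (-4.71), RASSF8 (-4.65), MAGEC1 (-4.58) and KRT5 (-4.43) were at 0 counts in untreated AGS. HBB (7.16) had counts in 1 treated AGS library and below 3 CPM in each treated MKN1 library. These sizes depend on the prior count and are no bound. MAGEC1, EDIL3 and RASSF8 lost their calls in 10, 9 and 5 of the 12 fits that leave out 1 library.

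With at least 1 CPM in every group, the wider genes were ANKRD1 (-4.50), ZDHHC11 (3.65), IL11 (2.68), MTMR11 (-2.62), SALL4 (2.32), TRAPPC6A (-2.25), GPCPD1 (-2.24) and PPP1R3F (2.19). The narrower ones were APPAT (3.11), CCN2 (-2.98), ADGRB2 (-2.88), SECTM1 (-2.41), SLC16A13 (2.32), H19 (-2.31), GPR39 (2.27) and INKA2 (2.22). GPR39 and INKA2 share 34.8% and 91.3% of their exonic bases with another gene. INKA2 lost its call in 6 of the 12 fits that leave out 1 library. IGFBP3 (-4.61) and TIMP3 (-3.32) were narrower with low counts in AGS. The reversed ones were TSPOAP1 (6.39), which averaged 0.435 CPM in treated AGS, TMEM217 (3.88), HYAL3 (3.68), TGM2 (-3.21), ABCA13 (2.65) and NEAT1 (-2.56).

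From the lists came, towards MKN1, DHCR7 (2.44), DDIT3 (2.45), BIK (1.81), FASN (1.75), GATA4 (1.66), BTG2 (1.35), HSPB8 (1.21), PPP2R5B (1.13), CALR (1.13), KRT19 (1.11) and ZEB1 (1.09). Towards AGS came ABCC3 (-2.43), MT1X (-2.0), UGT1A6 (-1.99), FSTL1 (-1.93), MUC1 (-1.88), NOTUM (-1.87), HSPG2 (-1.56), TNFAIP2 (-1.39), CLDN7 (-1.18), ERAP1 (-1.18), PFKL (-1.15), STAT2 (-1.12), EGFR (-1.07), E2F1 (-0.82) and MT-ND4L (-0.55). UGT1A6 shares 64.4% of its exonic bases with its gene cluster. MT-ND4L lost its call in 10 of the 12 fits that leave out 1 library.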

How the results depend on the processing

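The difference of the gaps was estimated less precisely than the treated gap, with a median SE of 0.32 against 0.229. Against a log2 change of 1, glmTreat called 6893 genes in the treated gap (4292 higher in MKN1, 2601 in AGS) and 289 in the difference (168 wider, 121 narrower). With at least 5 CPM in 3 libraries fewer genes were tested, 4888 were higher in MKN1, and the median absolute gaps were 0.7721 with and 0.7198 without the agent. With no filter the medians were 0.9994 and 0.9669. With GC and length trends removed the untreated median was 0.9037. Leaving out each library gave 12964 to 14741 treated calls and 2098 (without untreated AGS library 1) to 4643 (without untreated MKN1 library 3) calls in the difference. Wider calls were 1167 to 2460 and narrower calls 931 to 2183, and the untreated median was 0.8968 to 0.9218. The treated median was the larger one in each alternative that gives both. The difference count was 4052 in DESeq2, 3186 in limma-voom, 3141 to 3294 over the scalings and 2483 with no filter. Correlations between the deviations of same-numbered libraries were mostly near 0, within a line and between lines. The highest was 0.176, between the third untreated and the third treated MKN1 library. These values do not settle whether the numbers pair the libraries. With the replicate block the count was 3089 and, with GC and length removed, 3621 with an untreated median of 0.906. Of 153 named genes in the difference, 145 kept direction and side of the threshold with the block, 138 with limma-voom and 143 with no filter.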
